A study of Mus musculus with 35 samples.

Results

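The mitochondrial ribosomal protein genes of mouse were followed in N2a neuroblastoma cells after knockdown of Chtop, an RNA-binding protein of the mRNA export machinery. Members were all genes whose symbol starts with Mrpl or Mrps and a number and which have a row in the deposited count table, with pseudogenes left out. This gave 78 genes of the 9239 in that table. By symbol, 49 belong to the large subunit (Mrpl) and 29 to the small subunit (Mrps). Of the 78 proteins, 47 have a bacterial counterpart and 31 have none. Symbol and structure differ for a few: Mrps18a and Mrps30 sit in the large subunit, and Mrps36, among the 31 without a bacterial counterpart, is a component of the 2-oxoglutarate dehydrogenase complex.

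The mitochondrial ribosome translates the few mRNAs encoded by mitochondrial DNA, all of them for subunits of the respiratory chain and ATP synthase. Its RNA parts are made inside the organelle, whereas all of its proteins are encoded in the nucleus. Their mRNAs must therefore be exported, translated on cytosolic ribosomes and the proteins imported into mitochondria, where they are assembled in an ordered way with the help of GTPases, helicases and RNA-modifying enzymes. Loss of single ribosomal proteins is known to lower oxidative phosphorylation.

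Poly(A) RNA was measured in 35 libraries from 2 N2a Flp-In rtTA lines, which differ in the inducible FLAG-tagged Chtop cDNA they carry: without exon 5 in the mEx5 line and with it in the pEx5 line. Every library, controls included, came from cells with such a cDNA. The 3 conditions were a non-targeting siRNA pool (control), a single Chtop siRNA (knockdown), and the Chtop siRNA with doxycycline from the medium change at 24 h (rescue), all harvested at 72 h. The 3 fractions were total lysate, which was 20% of each harvest, and nuclei and cytoplasm from the rest. Groups had 2 replicates, called biological in the labels, except the cytoplasmic pEx5 control with 1 library. Doxycycline was never combined with the non-targeting pool, so the drug and the protein it induces cannot be told apart. Controls came from 2 dishes and knockdowns and rescues from 3, so dish number and the Chtop siRNA cannot be told apart. With a single Chtop siRNA set against a pool, loss of Chtop and other effects of that siRNA cannot be told apart in knockdown against control. No spike-in RNA is named, and changes are relative to the other genes measured in that fraction. In bulk samples, fewer cells of a type and less RNA per cell cannot be told apart.

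Total counts were 20652832 to 36102129 in total lysate, 11681781 to 28705620 in nuclei and 19478702 to 40105458 in cytoplasm, and the lowest count of any member in any library was 112. The 78 genes took 0.411 to 0.519% of counts in total lysate, 0.24 to 0.333% in nuclei and 0.369 to 0.415% in cytoplasm. Chtop, the siRNA target, held 125 to 141 CPM (counts scaled to library size) in the total lysate controls and 19.4 to 34.1 CPM in the knockdowns, with no overlap. It fell by 2.36 on the log2 scale in total lysate (SE 0.115, edgeR adjusted p = 3.59e-06), by 0.84 in nuclei and by 2.63 in cytoplasm. Of 14 noradrenergic and neuronal markers, 13 reached 1 RPKM in the total lysate controls, with Th (0.8 RPKM), which encodes tyrosine hydroxylase, below it. Of 10 fibroblast, glial and blood cell markers, 3 reached it. Transcripts of mitochondrial DNA took 0.628 to 1.61% of nuclear counts and 1.9 to 3.31% of cytoplasmic counts, so nuclear libraries were not free of RNA from outside the nucleus. The nuclear libraries of replicate 1 lay at 0.893 to 1.61%, above all those of replicate 2 at 0.628 to 0.828%. For the members' share of nuclear counts the replicates overlapped, with 0.282 to 0.333% in replicate 1 and 0.24 to 0.292% in replicate 2.

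ETS family factors such as GABP, nuclear respiratory factor NRF1, and YY1 are known to act on nuclear genes for mitochondria, and their motifs were searched in the promoters. RefSeq promoters (GRCm38.p6, 250 bases before to 50 after each start) were found for 69 of the 78 members. The ETS core CCGGAAG was in 26 of them (37.7%), against 23.9% of the 7256 promoters of genes in the count table and 9.93% of all 27025. The share was 34.9% for large subunit and 42.3% for small subunit symbols. The NRF1 palindrome, whose letters are the capitals of the Mrpl39 window below, was in 3 (4.35%, against 2.6% in the count table). The YY1 motif, whose reverse complement is the capitals of the Mrps11 window, was in 5 (7.25%, against 2.36%). Both strands were searched, and none of the 3 motifs contains another. A match describes the letters only. The windows of 30 bases below show that one motif stood before genes that rose (Mrpl34, Mrps26) and genes that fell (Mrpl43, Mrpl48) in the knockdown, and before Mrpl52, the highest by level. Mrpl39 and Mrps11 stand for the other motifs. Each is written on the strand of its gene, 5′ to 3′, with the motif, or its reverse complement, in capitals.
Mrpl52, chr14:54426851-54426880, plus strand, ETS: caagatgtcggCTTCCGGttttcccggcag
Mrpl34, chr8:71464878-71464907, plus strand, ETS: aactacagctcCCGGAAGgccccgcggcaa
Mrps26, chr2:130563727-130563756, plus strand, ETS: tggtgctccgcggccaCTTCCGGgccgggc
Mrpl43, chr19:45006480-45006509, minus strand, ETS: tcgcggtgactCCGGAAGcaaaactctcca
Mrpl48, chr7:100583146-100583175, minus strand, ETS: ggttttaaaaaCTTCCGGaaccaagatgct
Mrpl39, chr16:84735350-84735379, minus strand, NRF1: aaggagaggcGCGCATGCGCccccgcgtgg
Mrps11, chr7:78783012-78783041, plus strand, YY1: cctacgggcGCCGCCATCTTtctgtcttcc

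The genes themselves were short. Their longest GENCODE M21 transcripts (mm10) had a median of 1302 bases and 5 exons, against 2899 bases and 9 exons over the count table. A protein-coding gene started in the opposite direction within 1000 bases of the start of 18 of the 78 members (23.1%), against 12% of 8923 protein-coding genes of the table. Examples are Mrps12, 172 bases from Sars2 for the mitochondrial seryl-tRNA synthetase, and Mrpl57, 49 bases from Ska3. Exons of 23 members (29.5%) overlapped a gene on the other strand, among them the pair Mrpl46 and Mrps11, Mrpl43 with Twnk, Mrpl44 with Wdfy1, Mrpl48 with Rab6a and Mrpl14 with Tmem63b. The sources used here do not say whether counting used the strand, so values of these genes are uncertain to that extent. Mrpl23 and Mrpl48 each have a pseudogene with RPKM values up to 322.6 and 20.27 in some library, with which their reads may be shared.

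Levels were compared between genes as RPKM, which corrects for length and depth, in the 4 total lysate controls. The median of the 78 members was 80.2 RPKM, against 26.1 over the count table, 2080 for 84 cytosolic ribosomal protein genes and 225 for 81 nuclear genes of the respiratory chain and ATP synthase. Large subunit symbols had a median of 82.2 (range 16.6 to 314) and small subunit symbols one of 78.3 (39.2 to 162). Genes with a bacterial counterpart had a median of 93.9 and the 31 without one, Mrps36 included, a median of 60.5.

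The large subunit held both ends of the order. Mrpl52, a protein found only in mitochondrial ribosomes, was highest at 314 RPKM ± 20.4 (SD, n = 4), with library values of 334, 296, 329 and 297. Mrpl30 followed at 231 ± 18.9, Mrpl42 at 222 ± 49.7 and Mrpl34 at 200 ± 15. The 4 lowest were Mrpl1 at 19.9 ± 1.64, Mrpl23 at 19.1 ± 1.94, Mrpl50 at 16.9 ± 0.702 and Mrpl19 at 16.6 ± 1. The order had few gaps. Between neighbours, library values overlapped for all but 4 pairs: Mrpl52 and Mrpl30, Mrps25 and Mrpl45, Mrpl35 and Mrpl39, and Mrpl39 and Mrpl1.

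Proteins with a second known role lay in the upper part or the middle of the order. Mrpl12, which also binds the mitochondrial RNA polymerase, was at 162 ± 22.2 RPKM, and Mrpl58, a peptidyl-tRNA hydrolase built into the large subunit, at 153 ± 6.22. Mrps36 was at 162 ± 22.8. The 3 paralogs of bacterial S18 take different places in the ribosome and were at similar levels: Mrps18b at 101 ± 7.33, Mrps18a at 96.8 ± 3.92 and Mrps18c at 84.2 ± 8.01. Mrps30 was at 56.5 ± 2.5.

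**Figure D1:**
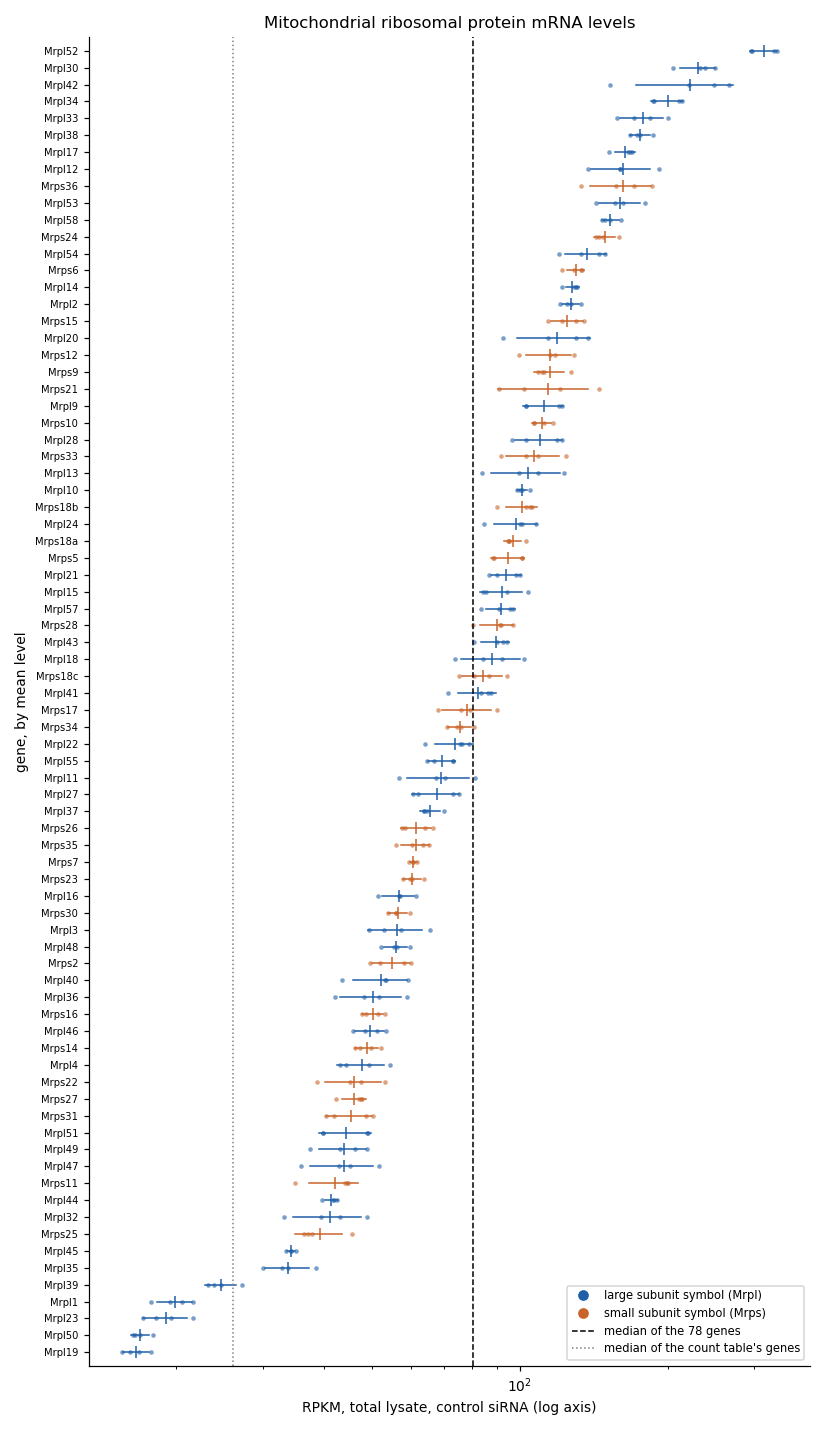
RPKM (log axis) of the 78 genes in the 4 total lysate control libraries, ordered by mean. Points are libraries, ticks are means and bars are SD. Large subunit genes span the whole range from 16.6 to 314, small subunit genes 39.2 to 162.

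The first comparison asked where these mRNAs were found under control siRNA, with 4 nuclear and 3 cytoplasmic libraries. From here on values are CPM after TMM scaling, and changes are log2 fold changes from edgeR's quasi-likelihood test. Calls are at a Benjamini-Hochberg adjusted p under 0.05 over all genes. Of the 78 members, 65 were lower in nuclei than in cytoplasm and 2 were higher, with a median of -0.61. Over all 9239 genes 69.9% were called, 33.8% higher and 36.1% lower, with a median of -0.028. For the large subunit, 41 of 49 were lower and 2 higher (median -0.64), and for the small subunit 24 of 29 were lower and 0 higher (median -0.56). Nuclei and cytoplasm came from the same harvests but were tested as separate libraries. With the replicate number as a block, 67 members were lower and 3 higher, among 75.3% of all genes called. Mrps9 was called higher with that block (0.22, SE 0.0933, edgeR adjusted p = 0.0435, against 0.112 without it). With the trend on the length over which each gene was counted taken out of each library, 40 members were lower and 8 higher, with a median of -0.21. Across the 78 genes, the ratio had a Spearman correlation of 0.39 with that length and -0.25 with the RPKM level. These genes share the same libraries. The part of gene length in the ratio beyond this was not tested.

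The 4 lowest ratios were those of large subunit genes with a bacterial counterpart. Mrpl35 held 20.8, 19.2, 23.5 and 16.4 CPM in the nuclear controls against 47.3, 40.8 and 46.1 in cytoplasm. The groups did not overlap, and the log2 ratio was -1.18 (SE 0.174, edgeR adjusted p = 2e-05). Mrpl34 was at -1.17, Mrpl30 at -1.16 and Mrpl36 at -1.10.

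The members called higher in nuclei without a block were Mrpl4 and Mrpl44. Mrpl23 lay between them at 0.26 and was not called (SE 0.163, edgeR adjusted p = 0.168). Mrpl4, a core protein with a bacterial counterpart, held 51.8, 50.7, 48.4 and 47.5 CPM in nuclei and 41.5, 44.4 and 37.9 in cytoplasm. All nuclear values were above all cytoplasmic ones (log2 0.30, SE 0.0827, edgeR adjusted p = 0.00441). Mrpl44, found only in mitochondrial ribosomes and related to RNase III enzymes, held 40.4, 39.2, 44.3 and 40.3 CPM in nuclei and 37, 36.2 and 34.4 in cytoplasm. Its difference was small (log2 0.21, SE 0.0775, edgeR adjusted p = 0.025). It was no longer called without the first nuclear pEx5 control (0.20, edgeR adjusted p = 0.050), the second cytoplasmic mEx5 control (0.20, 0.057) or the cytoplasmic pEx5 control (0.12, 0.29).

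The same ratio was counted in other lists. Of 81 respiratory chain genes 68 were lower in nuclei and 1 higher (median -0.79), and of 84 cytosolic ribosomal protein genes 69 and 5 (median -0.89). The 5 ribosomal proteins with other symbols differed among themselves. Aurkaip1 was at -0.84, Chchd1 at -0.69, Gadd45gip1 at -0.49 and Dap3 at -0.24, all called lower, while Ptcd3, a pentatricopeptide protein of the small subunit, was called higher in nuclei at 0.98 (SE 0.139, edgeR adjusted p = 1.37e-05). Among 17 genes that charge mitochondrial tRNAs (14 synthetases and Gatb, Gatc and Qrsl1, subunits of an amidotransferase) the median was 0.20. Among 25 genes listed as ribosome assembly factors it was -0.13. That list includes Mettl5 (-0.73), whose enzyme acts on cytosolic rRNA.

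**Figure D2:**
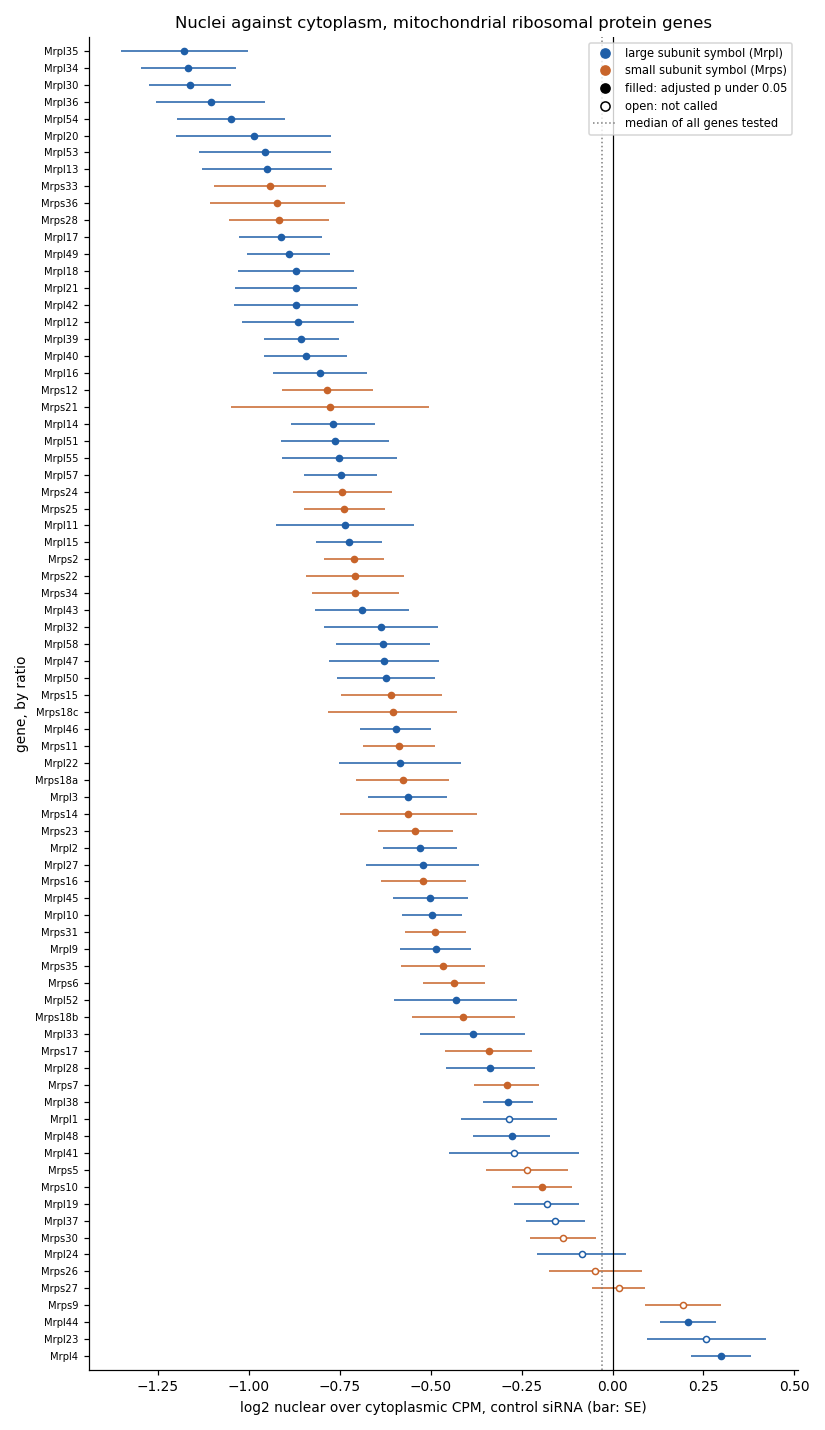
Log2 ratio of nuclear to cytoplasmic CPM under control siRNA for each of the 78 genes, with SE, ordered by ratio. Filled points passed the test: 65 to the left of 0 and, to the right, Mrpl4 and Mrpl44.

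The central comparison asked how the genes differed between the Chtop siRNA and the non-targeting pool. In total lysate 12 of the 78 members rose and 7 fell, with a median log2 fold change of 0.08, while 43.9% of the 9237 genes tested were called, 21.4% higher and 22.6% lower, with a median of 0.01. In the large subunit 5 rose and 5 fell (median 0.08), and in the small subunit 7 rose and 2 fell (median 0.12). With the replicate number as a block, since libraries of one number deviated together in total lysate and nuclei, 32 rose and 11 fell, 19 and 7 in the large and 13 and 4 in the small subunit, among 62.9% of all genes called. With the length trend taken out, 15 rose and 11 fell. The count of 12 became 7 without the second mEx5 control and 21 without the second mEx5 knockdown, and the count of 7 became 4 without the first mEx5 control or the first pEx5 knockdown.

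Mrps28, a small subunit protein with a bacterial counterpart (ENSMUSG00000040269.5, chr3:8802146-8923918 on mm10, minus strand), fell the most. Its total lysate controls held 35.1 and 37.7 CPM in the mEx5 line and 31.5 and 35.2 in the pEx5 line, and its knockdowns 24.2 and 21.3, then 18.5 and 17.4. All knockdown libraries lay below all controls, and each did so within its own pair of line and replicate, by 0.54 to 1.01 on the log2 scale. The log2 fold change was -0.79 (SE 0.0887, edgeR adjusted p = 0.000122). Nuclear values went from 17.2, 15.6, 17.5 and 14.8 to 13.5, 10.4, 7.56 and 7.78 CPM, a change of -0.76 (SE 0.136, edgeR adjusted p = 0.00251). Cytoplasmic values went from 30.7, 36.5 and 30.5 to 13.9, 19, 13.2 and 14.5 CPM, a change of -1.08 (SE 0.12, edgeR adjusted p = 6.12e-05). The groups did not overlap in any fraction, and the call held under every alternative and without any single library.

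Mrpl57, a small protein found only in mitochondrial ribosomes, had the highest rise in total lysate. Its total lysate controls held 36.3, 36.2, 34.8 and 31.4 CPM and its knockdowns 73.6, 51, 65.7 and 59.6. Every knockdown was above every control (log2 0.85, SE 0.111, edgeR adjusted p = 0.000292). In nuclei and in cytoplasm it rose by 0.43 in each (edgeR adjusted p = 0.00663 and 0.00573), again with no overlap of the groups. Mrpl36, a very small large subunit protein with a bacterial counterpart, went from 25.3, 22.4, 21.1 and 18.1 to 42.8, 34.4, 37.1 and 27.4 CPM in total lysate. The groups did not overlap (log2 0.70, SE 0.131, edgeR adjusted p = 0.00203), and it also rose in nuclei (0.49) and cytoplasm (0.53). The nuclear call of Mrpl36 was lost, at adjusted p of 0.061 to 0.16, without any one of 6 of the 8 libraries, all but the first pEx5 control and the second mEx5 knockdown, and at 0.059 with library totals alone as scaling.

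Counting these, 6 members were called in the same direction in all 3 fractions. The share of all genes that met this rule was not counted, so the 6 cannot be read as an excess. Single fractions had 43.9% (total lysate), 31.4% (nuclei) and 40.7% (cytoplasm) of all genes called. Beside Mrps28, Mrpl57 and Mrpl36 these were Mrps10 (lower), which lies in the head of the small subunit, and Mrpl39 and Mrps2 (higher). Mrps10 went from 78.6, 76.1, 73.4 and 72.2 to 66.1, 56.3, 59.9 and 57.7 CPM in total lysate, with no overlap (log2 -0.32, SE 0.0739, edgeR adjusted p = 0.00606). Its changes were -0.36 in nuclei and -0.29 in cytoplasm, the last not called without the first mEx5 knockdown (-0.25, edgeR adjusted p = 0.063). Mrpl39 went from 38.3, 36.4, 43.3 and 37.3 to 53.7, 46, 56.8 and 47.6 CPM, also with no overlap (log2 0.39, SE 0.0846, edgeR adjusted p = 0.00432), and changed by 0.36 in nuclei and 0.24 in cytoplasm.

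Mrps2, a small subunit protein with a bacterial counterpart, went from 92.8, 84, 97.9 and 79.5 to 115, 104, 120 and 107 CPM in total lysate, again with no overlap (log2 0.33, SE 0.0824, edgeR adjusted p = 0.00928). It changed by 0.30 in nuclei and 0.31 in cytoplasm. The nuclear calls of Mrpl39 and Mrps2 were each lost without any one of 5 libraries, at adjusted p of 0.053 to 0.12 and 0.054 to 0.095. For both these were the first knockdown of each line and the second control of each line, with the first mEx5 control for Mrpl39 and the first pEx5 control for Mrps2. The cytoplasmic call of Mrpl39 was lost without any one of the 3 controls or either mEx5 knockdown, at 0.050 to 0.16.

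**Figure D3:**
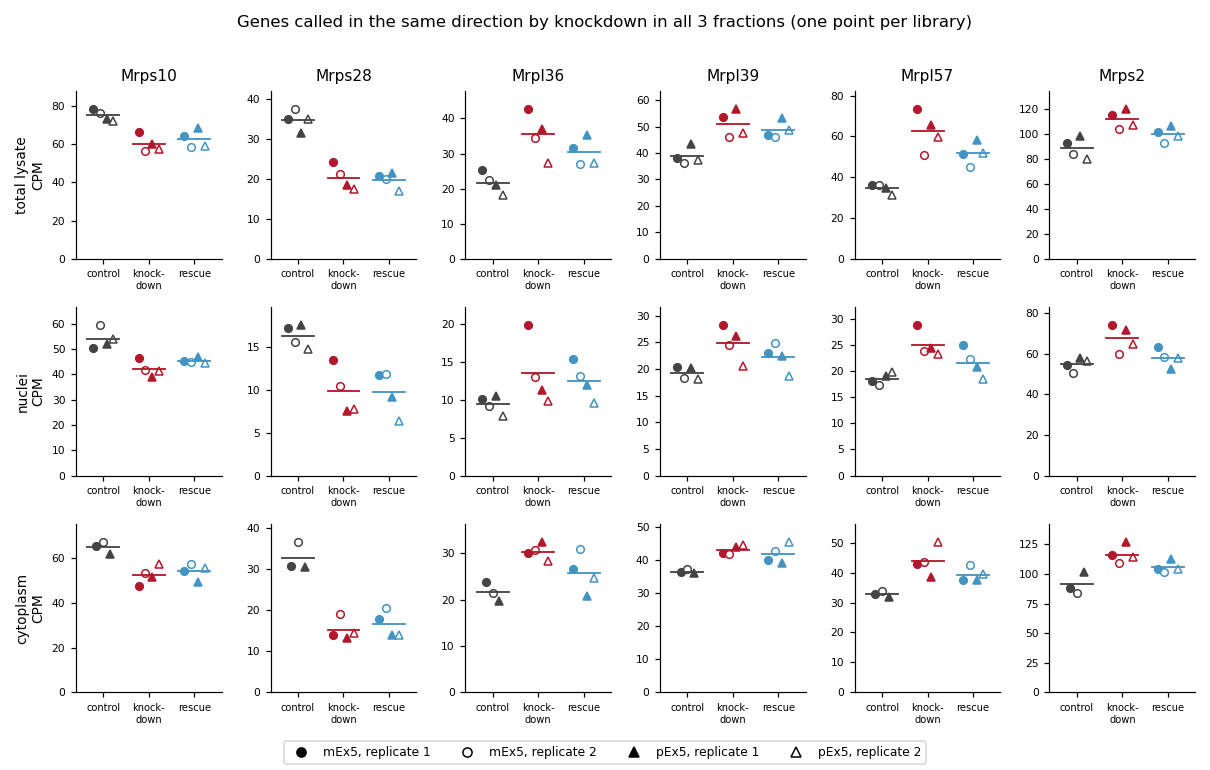
CPM per library of the 6 genes called in the same direction by the knockdown in all 3 fractions, by condition. Points are libraries, marked by line and replicate, and lines are means. For Mrps28 the 4 total lysate knockdowns lie at 17.4 to 24.2 and the controls at 31.5 to 37.7.

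Other members were called in total lysate alone or in a pair of fractions. Mrpl20, a large subunit protein with a bacterial counterpart, went from 47.3, 41.7, 51.1 and 33.8 to 87.4, 54.8, 83.9 and 53 CPM, and its replicate 1 libraries were above replicate 2 in both groups and lines. The change was 0.68 (SE 0.223, edgeR adjusted p = 0.0334). With the replicate block it was 0.66 at an adjusted p of 2.11e-06, and it was not called, at 0.066 to 0.13, without any one of 5 libraries: the first mEx5 control, the first knockdown of either line, or the second control of either line. Mrps12, of the decoding centre, rose by 0.49 (SE 0.107, edgeR adjusted p = 0.00474) in total lysate. Mrpl48 fell by 0.36 in total lysate and 0.47 in cytoplasm. Mrpl1 fell by 0.25 in total lysate (edgeR adjusted p = 0.0465), a call that was lost without any one of 6 of the 8 libraries (0.066 to 0.15), all but the first mEx5 knockdown and the second pEx5 control, with the length trend taken out (0.053) and with all 35 libraries in one fit (0.096).

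In nuclei 8 members rose and 3 fell (median 0.10), with 31.4% of all genes called, 15.4% higher and 16% lower. The large subunit had 5 higher and 1 lower and the small subunit 3 and 2. Mrpl4 rose by 0.37 (SE 0.0747, edgeR adjusted p = 0.00493), Mrps17 by 0.41, Mrps25 by 0.38 and Mrpl44 by 0.29. The calls of Mrps17 and Mrps25 were each lost in 6 of 16 alternatives, libraries left out included. Mrpl14 fell by 0.36 (edgeR adjusted p = 0.0381), a call lost without any one of 7 of the 8 libraries, all but the second pEx5 control, at 0.056 to 0.12. With the replicate block 20 rose and 11 fell, among 55.4% of all genes called, and with the length trend taken out 9 rose and 10 fell. The count of 8 became 2 to 4 without the first or second mEx5 control, the second pEx5 control or the first knockdown of either line. Within pairs of line and replicate, the members' median was 0.34 in the first mEx5 pair and 0.10, -0.02 and -0.03 in the others. The knockdown library of that first pair had 1.59% mitochondrial transcripts, against 1.44% in its control, and what part this had in the count was not tested.

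In cytoplasm the balance was the other way: 5 members rose and 14 fell (median -0.06), with 40.7% of all genes called, 19.8% higher and 20.9% lower. In the large subunit 4 rose and 9 fell (median -0.07), and in the small subunit 1 rose and 5 fell (median -0.03). Mrpl14, a large subunit protein at the face toward the small subunit, held 35.6, 35.1 and 33.8 CPM in the controls and 20.4, 22.9, 23.1 and 25.7 in the knockdowns. The groups did not overlap (log2 -0.59, SE 0.101, edgeR adjusted p = 0.000903). Mrps15 fell by 0.43 (SE 0.0833, edgeR adjusted p = 0.00182, and 0.054 without the pEx5 control), Mrpl58 by 0.39 and Mrpl43 by 0.36. The split turned to 11 higher and 10 lower with the length trend taken out, and to 10 and 12 when libraries were scaled by their totals alone. The 5 higher became 3 without the second mEx5 control, the pEx5 control or either mEx5 knockdown, and the 14 lower became 9 without the first mEx5 knockdown. Of 84 cytosolic ribosomal protein genes, 44 fell here and 0 rose (median -0.27, with 52 at an unadjusted edgeR p under 0.05).

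The same comparison was read library by library. In total lysate all knockdown libraries lay above all controls for 13 members and below for 7 (16.7% and 8.97%), against 19.2% and 19.6% of all genes. In nuclei the counts were 5 and 2, against 15% and 14.6% of all genes, and in cytoplasm 12 and 18 (15.4% and 23.1%), against 21.7% and 21.3%.

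**Figure D4:**
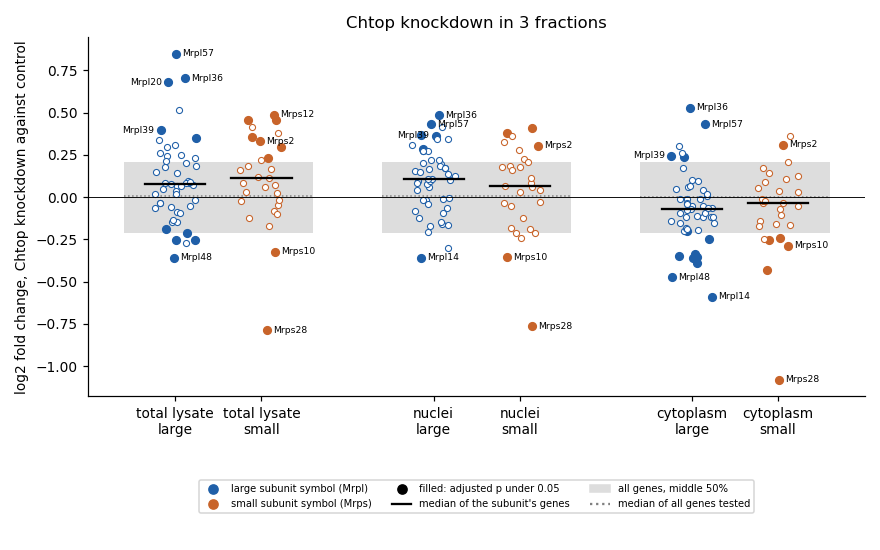
Log2 fold change of each member in the knockdown against control, by fraction and subunit. Filled points passed the test, short black lines are subunit medians, and the grey band holds the middle 50% of all genes. The medians lie above 0 in total lysate and nuclei and below 0 in cytoplasm, and Mrps28 is lowest in each fraction.

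Without the block, the S18 paralogs Mrps18a, Mrps18b and Mrps18c, and Mrps30, Mrps36 and Mrpl12, were not called in any fraction. Under the replicate block, Mrps18c (0.36, edgeR adjusted p = 0.000535) and Mrpl12 (0.22, 0.00137) were called higher in total lysate. In nuclei the block gave Mrpl12 (0.26, edgeR adjusted p = 0.00189) and Mrps18c (0.22, 0.0438) as higher and Mrps30 (-0.18, 0.0214), Mrps36 (-0.22, 0.0298) and Mrpl58 (-0.22, 0.0226) as lower. Without the block in total lysate, Mrps18c was at 0.38 (SE 0.174, edgeR adjusted p = 0.102), Mrpl12 at 0.23 and Mrps36 at 0.12, and the others lay between -0.10 and 0.07. Mrpl58 was at -0.27 in total lysate (edgeR adjusted p = 0.0501, or 0.00039 with the replicate block), and it fell in cytoplasm as given above.

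Genes listed as serving the mitochondrial ribosome were called in total lysate as follows, beside 43.9% of all genes. Of the 25 genes listed as assembly factors, Mettl5 of cytosolic rRNA included, 8 rose and 3 fell (44%). Mettl17, which works on the small subunit rRNA, rose by 0.71 (SE 0.078, edgeR adjusted p = 0.000109), Fastkd2 by 0.64 and Gtpbp10, a GTPase of large subunit assembly, by 0.61. Of 16 genes for mitochondrial DNA upkeep and RNA synthesis 6 rose and 1 fell (43.8%), the latter being the mitochondrial topoisomerase Top1mt (-0.87, SE 0.0732, edgeR adjusted p = 2.59e-05). Ssbp1, the single-strand DNA-binding protein, rose by 0.49. Of the 17 tRNA-charging genes 5 rose and 1 fell (35.3%). The one that fell was Fars2 (-0.49), and those that rose were the synthetases Rars2, Tars2 and Yars2 and the amidotransferase subunits Gatb and Gatc. Of 14 translation factor genes 2 rose and 3 fell (35.7%), with Guf1 at 0.37. Of the 5 ribosomal proteins with other symbols, 0 were called in total lysate. Chchd1 fell by 0.49 in cytoplasm, and Ptcd3 rose by 0.43 in nuclei (SE 0.139, edgeR adjusted p = 0.038).

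The same lists were counted in nuclei, where 31.4% of all genes were called, and cytoplasm, with 40.7%. The genes listed as assembly factors had 9 higher and 0 lower in nuclei (36%) and 6 and 1 in cytoplasm (28%). The tRNA-charging genes had 7 and 1 (47.1%), then 4 and 0 (23.5%). RNA synthesis genes had 7 and 1 (50%), then 6 and 1 (43.8%). In nuclei Lars2, for the leucyl-tRNA synthetase, had the largest of these changes at 1.27 (SE 0.218, edgeR adjusted p = 0.00209). Lars2 was not called in total lysate (0.272, SE 0.405, edgeR adjusted p = 0.611) or in cytoplasm (0.075, SE 0.354, edgeR adjusted p = 0.885). The 13 mRNAs of mitochondrial DNA, which the mitochondrial ribosome translates, had 1 higher and 0 lower in total lysate (median 0.44, mt-Nd5 at 0.80) and 5 and 0 in cytoplasm (median 0.36). The 81 respiratory chain genes had 14 higher and 7 lower in total lysate (25.9%).

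Rescue was compared with knockdown to ask whether induced FLAG-Chtop changed the response. Of the 78 members, 0 were called in total lysate, nuclei or cytoplasm by edgeR, and 0 by DESeq2. At an unadjusted edgeR p under 0.05 there were 7, 4 and 11. Over all genes edgeR called 0.0217%, 0.0108% and 0.0433% (0.0325% higher in cytoplasm), with Chtop itself at 3.07, 2.03 and 3.00. DESeq2 called 22, 63 and 21 of all 9239 genes. The members' medians were -0.09 in total lysate, 0.01 in nuclei and -0.06 in cytoplasm. With the replicate block 0 rose and 7 fell in total lysate, among 1.84% of all genes called, and 3 of the 7 were large subunit symbols: Mrpl57 (-0.27, SE 0.0671, edgeR adjusted p = 0.049), Mrpl34 (-0.29) and Mrpl12 (-0.25). The others were Mrps25, Mrps26, Mrps34 and Mrps12. In nuclei with the block Mrps27 rose by 0.23 and Mrpl44 fell by 0.23, among 6.84% of all genes called. In cytoplasm 10 members were called lower without the second pEx5 knockdown.

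Mrps28 was not changed detectably by rescue. Its rescue libraries held 20.8, 20.1, 21.5 and 16.9 CPM in total lysate, inside the range of the knockdowns except for the lowest (log2 -0.03, SE 0.0895, edgeR adjusted p = 0.956). Mrpl57 held 51.3, 45.1, 58.4 and 51.7 CPM, between controls and knockdowns for the mean (34.7, 62.5 and 51.6 CPM in control, knockdown and rescue), a log2 difference from the knockdown of -0.28 (SE 0.11, edgeR adjusted p = 0.677). Against control, rescue had 4 members higher and 8 lower in total lysate (37.3% of all genes called), 4 and 1 in nuclei (23.7%) and 2 and 19 in cytoplasm (35.7%). This comparison shares the control libraries with the knockdown comparison. Chtop RNA was above control in it, at 0.708 in total lysate, 1.195 in nuclei and 0.37 in cytoplasm (edgeR adjusted p = 0.000905, 0.000304 and 0.00929). Mrps28 was at -0.82, -0.77 and -0.97 here, beside -0.79, -0.76 and -1.08 in the knockdown.

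In the rescue against control, Mrpl57 (0.57), Mrpl36 (0.49), Mrps14 (0.39) and Mrpl39 (0.33) were higher in total lysate, and Mrpl43 (-0.38), Mrpl48 (-0.35) and Mrpl58 (-0.34) were lower along with Mrps28. Of 16 alternatives, libraries left out included, 7 lost the call of Mrps14, 5 Mrpl58, 4 Mrpl36 and 1 Mrpl39. In cytoplasm Mrpl14 (-0.51), Mrpl54 (-0.50) and Mrps36 (-0.46) followed Mrps28. The last 2 were not called without the single pEx5 control (edgeR adjusted p = 0.096 and 0.10), and that library's absence took the count from 19 to 7. With the replicate block the total lysate count was 20 higher and 19 lower (57.9% of all genes called) and the nuclear count 18 and 9 (49.8%). In total lysate the 4 higher became 1 or 2 without the first mEx5 rescue, the first pEx5 rescue or the second control of either line, and 8 without the second pEx5 rescue. In nuclei the 4 higher became 0 without the first or second mEx5 control, the second pEx5 control or the first rescue of either line, 1 without the second mEx5 rescue and 2 without the first pEx5 control. The 1 lower became 2 without the first mEx5 control or the first pEx5 rescue. In cytoplasm the 19 lower became 12 without the first mEx5 control or the first pEx5 rescue. There the 2 higher became 0 without the pEx5 control and 1 without either mEx5 control or the second rescue of either line.

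The lines did not differ detectably. The knockdown effect and the rescue effect were each compared between the mEx5 and pEx5 lines in each fraction, and 0 members were called in these 6 tests by edgeR, with 0% of all genes called. DESeq2 also called 0 members in 5 of them, where it called 0 or 1 of 9239 genes. For the rescue effect in cytoplasm DESeq2 gave an adjusted p to 642 genes alone and called 7 of them, so it does not serve as a check on the members there. At an unadjusted edgeR p under 0.05 there were 0 to 8 members per test. The median SE for a member was 0.15 to 0.27, so only large differences could be seen. Mrps28 fell by 0.35 and 0.58 in the nuclear mEx5 pairs and by 1.20 and 0.92 in the nuclear pEx5 pairs (difference 0.61, SE 0.272, edgeR adjusted p = 0.721). With the replicate block Mrpl17 was called for the nuclear knockdown effect (0.61, SE 0.147, edgeR adjusted p = 0.045), among 1.72% of all genes. For the cytoplasmic rescue effect, 6 members were called without the second pEx5 knockdown.

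The ratio of nuclear to cytoplasmic level was then compared between conditions, to ask whether these mRNAs were shifted toward the nucleus under the Chtop siRNA. The ratio rose for 2 members under knockdown, Mrpl38 and Mrpl44, and fell for 0, with 5.14% of all genes called, 3.83% higher and 1.31% lower. The median change was 0.15 over the members (0.18 for the large and 0.13 for the small subunit) against 0.01 over all genes, 0.32 for cytosolic ribosomal protein genes and 0.13 for respiratory chain genes. At an unadjusted edgeR p under 0.05 there were 8 members. Without the cytoplasmic pEx5 control, the median change was 0.35.

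Mrpl38, a large subunit protein found only in mitochondrial ribosomes, held 116, 118, 131 and 132 CPM in nuclear controls and 152, 131, 128 and 121 in nuclear knockdowns, which overlap. In cytoplasm it held 143, 151 and 156 against 120, 130, 127 and 136, which do not. The log2 ratio went from -0.29 to 0.05, a change of 0.34 (SE 0.0927, edgeR adjusted p = 0.0471). Mrpl44 held 40.4, 39.2, 44.3 and 40.3 against 51.8, 45, 54.5 and 51.9 CPM in nuclei and 37, 36.2 and 34.4 against 31.9, 33.8, 34.6 and 33.7 in cytoplasm. The nuclear values did not overlap, and the ratio changed by 0.39 (SE 0.103, edgeR adjusted p = 0.0385). The replicate block gave 3 members called higher: Mrpl38 (0.34, edgeR adjusted p = 0.0206), Mrpl44 (0.38, 0.0187) and Mrpl48 (0.42, 0.0349, against 0.0819 without the block). Under that block 12.9% of all genes were called for the ratio, 766 higher and 422 lower of 9239. Both calls of Mrpl38 and Mrpl44 were lost with the culture as a block (edgeR adjusted p = 0.12 and 0.10) and with library totals as scaling (0.13 and 0.092). Both were also lost without any one of 13 of the 15 nuclear and cytoplasmic control and knockdown libraries, all but the second nuclear mEx5 knockdown and the second cytoplasmic pEx5 knockdown, at 0.051 to 0.15. Without the second cytoplasmic pEx5 knockdown 1 call was left.

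By condition, 65 members were called lower in nuclei than in cytoplasm under control siRNA, 59 under knockdown and 55 under rescue, and 2, 4 and 5 higher. Over all 9239 genes, 3336, 3578 and 3464 were called lower and 3125, 3367 and 3280 higher. The members' medians were -0.61, -0.44 and -0.38, while those of all genes were -0.03, -0.03 and -0.04. The rescue against the knockdown changed the ratio of 0 members by edgeR or DESeq2, with a median of 0.06. At an unadjusted edgeR p under 0.05 there was 1 member. Of all genes edgeR called 0.0216%, and DESeq2 called 4 of 9239. Mrpl23, chosen after its values were seen, had ratios of 0.26, 0.77 and 0.96 in control, knockdown and rescue, with the limit that its reads may be shared with a pseudogene. Its change under knockdown was 0.51 (SE 0.217, edgeR adjusted p = 0.19).

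**Figure D5:**
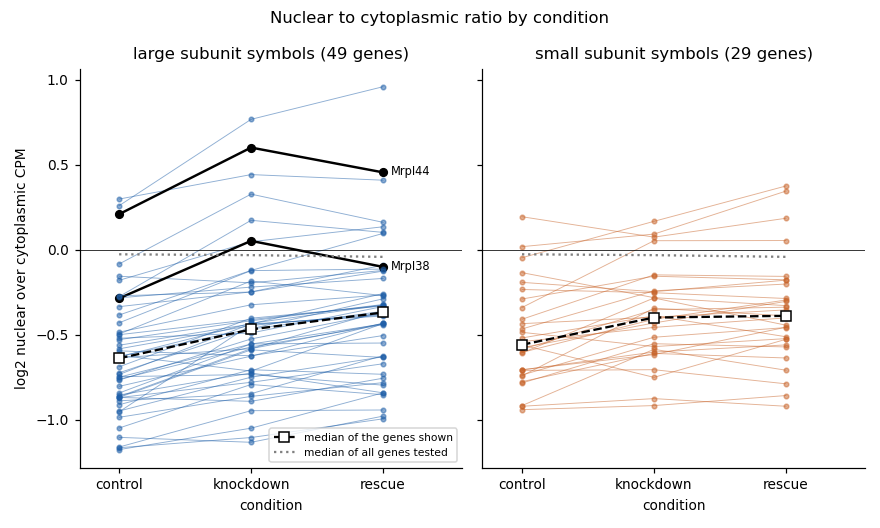
Log2 nuclear to cytoplasmic ratio of each member in control, knockdown and rescue, by subunit. Thin lines join the values of 1 gene, squares are subunit medians and the dotted line is the median of all genes. The large subunit median goes from -0.64 to -0.47 and -0.37, the small subunit median from -0.56 to -0.40 and -0.39.

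The authors' deposited table marks genes that overlap Chtop iCLIP, a map of where the protein touches RNA. Among the 78 members, 10 carry the mark in the authors' deposited table (12.8%), against 48.5% of all 9239 genes, 5.95% of cytosolic ribosomal protein genes and 7.41% of respiratory chain genes. The authors' deposited table marks 4 large subunit genes (8.16%), namely Mrpl9, Mrpl10, Mrpl38 and Mrpl44, and 6 small subunit genes (20.7%), namely Mrps2, Mrps5, Mrps6, Mrps26, Mrps30 and Mrps34. Mrps28, Mrpl57 and Mrpl36 carry no mark in the authors' deposited table, nor does Mrpl48, whereas Mrps2, Mrpl38 and Mrpl44 do. The members' median change of the nuclear to cytoplasmic log2 ratio under knockdown is 0.16 in the authors' deposited table, against 0.01 over all genes. In the authors' deposited table this change runs from -0.3 (Mrps5) to 0.52 (Mrpl38) among marked members. Among unmarked members it runs from -0.19 (Mrps14) to 0.6 (Mrpl48) in the authors' deposited table.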

How the data were processed

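Poly(A) RNA-seq of 35 libraries was analysed from the deposited tables. The authors deposited whole-number counts per gene for 9239 genes. They also deposited RPKM values for 54393 genes, per the file headers. How counts and RPKM were made is not stated: Salmon 0.14.1, DESeq2 and mm10 are named in the submitters' processing notes with no role. A log2 change of the nuclear to cytoplasmic ratio and an iCLIP mark were copied as the authors deposited them. The RPKM table has 1 column of no sample here, and it was not used.

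Counts were fitted per fraction (6 groups), and for nuclei with cytoplasm together, with edgeR 4.0.16 in R 4.3.3 (limma 3.58.1): TMM scaling, filterByExpr (which removed 2, 0 and 1 genes in total lysate, nuclei and cytoplasm), robust quasi-likelihood tests and Benjamini-Hochberg adjustment over all genes at 0.05. Effects of the lines were averaged. SE is the log2 fold change over the root of F. The procedure was tested on simulated counts drawn with no replicate effect and with few genes changed. These libraries differ in both respects, so the simulation does not check the tests for them. Alternatives were DESeq2 1.42.0 (Wald test), its size factors, library totals, no filter, a replicate block, 1 fit of all libraries, a lowess length trend (span 0.3) taken out, and each library left out. Deviations of same-numbered libraries from their group means correlated at 0.35 to 0.79 in total lysate (15 of 15 pairs over 0.1), at 0.52 to 0.72 in nuclei (15 of 15) and at 0.059 to 0.65 in cytoplasm (7 of 10), so numbers were taken to pair libraries in the first and second of these fractions. For nuclei with cytoplasm of one culture the correlations were -0.089 to 0.5 (4 of 5 over 0.1), and the main fit did not pair these fractions. Nothing says that replicates came from separate cultures beyond the word biological, and p-values measure the spread between these libraries.

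Members and gene lists were chosen with earlier results of these data known. Genes were named by rule: per comparison the 4 highest and 4 lowest called members, the 4 highest and lowest by RPKM, members called in all 3 fractions in one direction, the S18 paralogs, Mrps30, Mrps36, Mrpl12 and Mrpl58, and up to 3 called genes per other list.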

Additional observations from a re-analysis of the deposited data

Results flagged for a closer look

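The change of the nuclear to cytoplasmic ratio under knockdown passed the test of the difference between fractions (the interaction of fraction and condition) for Mrpl38, at 0.34 on the log2 scale, and for Mrpl44, at 0.39. Both calls were lost with the culture as a block (edgeR adjusted p = 0.12 for Mrpl38 and 0.10 for Mrpl44), with scaling by library totals (0.13 and 0.092), and without any one of 13 of the 15 control and knockdown libraries. Groups of 2 libraries are too small for a check of single outlying values.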

How the results depend on the processing

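Counts below are of members called higher or lower, by edgeR unless named. Where only one direction is given, the other is left out here and need not be 0. No paired analysis changed the direction of a named gene. With the replicate block, the knockdown gave 32 higher and 11 lower in total lysate and 20 and 11 in nuclei. It gave 8 higher and 15 lower in cytoplasm, where the numbers are not shown to pair libraries. The same block gave 0 higher and 7 lower for rescue against knockdown in total lysate and 1 and 1 in nuclei. For rescue against control it gave 20 higher with 19 lower in total lysate, 18 with 9 in nuclei, and 4 with 23 in cytoplasm. It gave 1 higher for the line difference of the nuclear knockdown effect, among 1.72% of all genes called. Over all genes the replicate block called 62.9% for knockdown in total lysate, 55.4% in nuclei and 49.5% in cytoplasm. For rescue against control these shares were 57.9%, 49.8% and 43.9%. For rescue against knockdown they were 1.84% in total lysate and 6.84% in nuclei. The culture as block left 0 members with a higher ratio under knockdown. Library totals alone gave 0 for that ratio, 10 higher in the cytoplasmic knockdown, and, for rescue against control, 7 higher in total lysate, 2 lower in nuclei and 5 higher in cytoplasm. The DESeq2 Wald test and its size factors each gave 2 lower in nuclei for rescue against control. One fit of all libraries gave 8 higher and 3 lower there, and 1 higher and 11 lower in cytoplasm.

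With the length trend taken out, nuclei against cytoplasm had 8 higher and 40 lower (median -0.21), and the ratio under knockdown had 1 higher. Knockdown then had 11 lower in total lysate, 10 lower in nuclei and 11 higher in cytoplasm. Rescue against control had 9 higher and 17 lower in total lysate, 8 lower in nuclei, and 4 higher and 9 lower in cytoplasm (median -0.023). Medians of the cytoplasmic line differences became 0.02 for the knockdown effect and -0.012 for the rescue effect. With the length trend and the replicate block together, nuclei against cytoplasm had 9 higher and 43 lower (median -0.21). Knockdown had 24 higher with 16 lower in total lysate, 17 with 15 in nuclei, plus 14 higher in cytoplasm. Rescue against knockdown had 8 lower in total lysate, and 1 higher and 2 lower in nuclei. Rescue against control had 18 higher with 23 lower in total lysate, 12 with 11 in nuclei, plus 10 higher in cytoplasm (median -0.036), and the line differences 0.022 and -0.015. The cause was not tested.

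Leaving out each library in turn, the knockdown count ranged from 7 to 21 higher and 4 to 8 lower in total lysate, from 2 to 9 higher in nuclei, and from 3 to 7 higher and 9 to 15 lower in cytoplasm (median -0.14 to -0.025). Rescue against control ranged from 1 to 8 higher in total lysate, 0 to 4 higher and 1 to 2 lower in nuclei, and 0 to 3 higher and 7 to 20 lower in cytoplasm. Rescue against knockdown in cytoplasm ranged from 0 to 10 lower. The ratio under knockdown ranged from 0 to 2 higher (median 0.078 to 0.35), and nuclei against cytoplasm from 1 to 2 higher. The cytoplasmic line differences had medians of -0.15 to -0.016 for the knockdown effect and 0.042 to 0.15 for the rescue effect, with 0 to 6 members higher. Without the cytoplasmic pEx5 control, comparisons with control there rest on the mEx5 line and the line difference of the knockdown effect has no value. For single named genes 0 directions were reversed. Their calls were lost in 133 and held in 300 values with a library left out, and were lost in 16 and held in 432 values under other alternatives. With 1 or 2 libraries per group, small changes of low genes could not be seen.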
